A study of Arabidopsis with 8 samples.

Results

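The major latex protein-like (MLP) genes of Arabidopsis thaliana are 9 genes that carry the name MLP-like protein: MLP28 (AT1G70830), MLP31 (AT1G70840), MLP34 (AT1G70850), MLP43 (AT1G70890), MLP165 (AT1G35260), MLP168 (AT1G35310), MLP328 (AT2G01520), MLP329 (AT2G01530) and MLP423 (AT1G24020). They were taken by locus tag from 25404 genes listed in at least 1 library, and are the same 9 genes that the reference gene table names MLP-like protein. Of the 9, 8 were listed in every library and MLP31 in none. They were chosen by name with their FPKM in all 8 libraries known, in each tissue and genotype, so their levels and differences are a description. No p-value is given for any of them, and a count of them past a threshold stands beside the share of all genes as a description that supports nothing.

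Roots and the shoot part of seedlings aged 5 days were sequenced separately, for the wild type Col-0 and for OE-SAUR41 plants, which overexpress SAUR41, a SMALL AUXIN UP RNA gene. Each combination of genotype and tissue had 2 libraries, 8 in all. The promoter driving the transgene, the number of transgenic lines behind the OE-SAUR41 libraries and the number of seedlings in a sample were not given in the sources used here. Separate cultures are not stated for replicates, so p-values measure only how far these samples spread, and that spread may be technical.

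MLP proteins belong to the Bet v 1 family, named after the major allergen of birch pollen, whose members fold around a hydrophobic cavity that can hold small ligands. The first MLPs were described in the latex of opium poppy, and in cucurbits MLPs carry hydrophobic compounds into the xylem sap. The PYR/PYL abscisic acid receptors share the same fold. In Arabidopsis, MLP43 has been linked to abscisic acid response and drought tolerance, and MLP328 and MLP329 are also known as ZCE1 and ZCE2, after their response to cis-cinnamic acid.

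SAUR41 itself gave 4.64 and 7.46 FPKM in Col-0 roots, 7996 and 4670.3 in OE-SAUR41 roots, 4.93 and 8.29 in Col-0 shoots, and 10675 and 10248 in OE-SAUR41 shoots. FPKM, the number of fragments scaled by transcript length and by the size of the library, is a level per length, so levels can be set side by side between genes. The files listed 19573 to 23028 genes a library; they hold no counts, so depth is unknown. The summed level of 6 root markers lay between 213 and 234 FPKM in roots and between 14.7 and 20.4 in shoots. That of 6 shoot markers lay between 80.3 and 119.9 FPKM in roots and between 19700.3 and 38703 in shoots. The Col-0 shoot libraries stood apart from each other: the interquartile range of the difference between replicates over all genes tested was 1.08 on the log2(FPKM + 1) scale, against 0.30 to 0.41 in the other groups. Differences between genotypes in shoots that this moved are given also without each of them.

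MLP34, MLP328, MLP329 and MLP165 were higher in all 4 root libraries than in any shoot library. MLP28, MLP43, MLP423 and MLP168 were higher in all 4 shoot libraries than in any root library. MLP329, MLP168 and MLP423 reached 1 FPKM only in the tissue where they were high, so no count of separated genes is drawn from this. Within Col-0 alone, 2 libraries against 2, 84.0% of all genes tested did not overlap between tissues, and within OE-SAUR41 alone 92.9%. In Col-0, 13417 of 19863 genes stood higher in roots in this way and 3262 lower. The share of all genes that separated 4 libraries against 4 was not computed. On tissue means over 4 libraries, which pool the genotypes, the ratio ran from 6.28 for MLP168 to 499 for MLP329. Both of these divide by a mean under 1 FPKM, so they are uncertain.

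**Figure D1:**
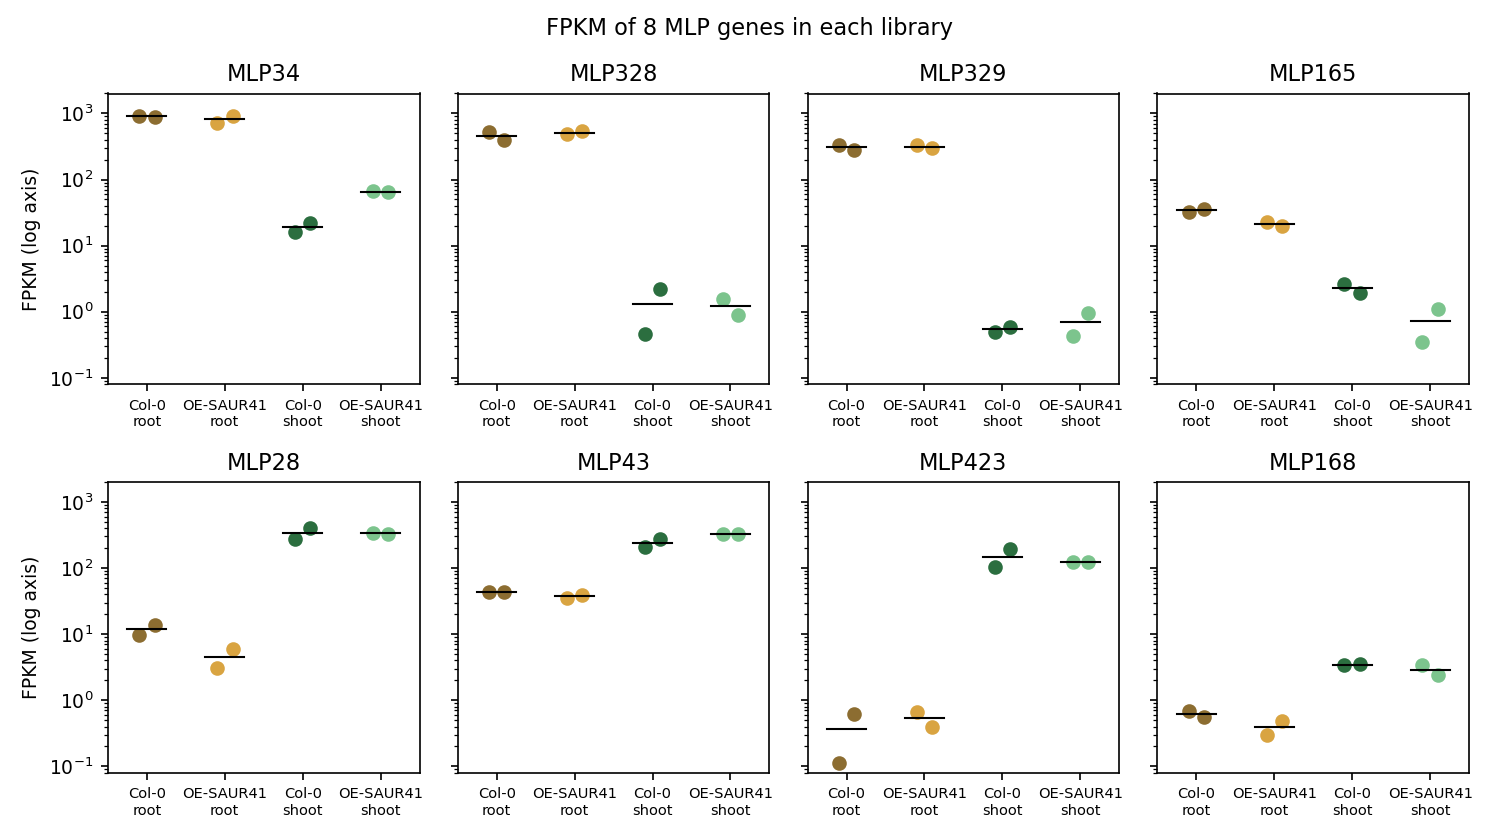
FPKM on a log axis (vertical) of the 8 listed MLP genes in each library, by group; points are libraries and lines are group means (n = 2). The upper 4 genes stood higher in roots and the lower 4 in shoots. Between genotypes, MLP28, MLP43, MLP165 and MLP168 did not overlap in roots, 4 of 8, where 31.1% of all genes did not. In shoots MLP34, MLP43, MLP165 and MLP168 did not overlap, 4 of 8, where 39.7% of all genes did not.

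MLP34 had the highest level in roots, at 927 and 884 FPKM in Col-0 and at 727 and 900.4 in OE-SAUR41. It ranked between 33 and 46 among all genes of a root library. In shoots MLP34 gave 15.8 and 21.9 FPKM in Col-0 and 67.5 and 63.7 in OE-SAUR41. With the genotypes pooled, the root mean was 20.4 times the shoot mean, a ratio that describes neither genotype alone. The Col-0 root mean of 906 FPKM stood against a Col-0 shoot mean of 18.9. For OE-SAUR41 the root mean of 814 FPKM stood against a shoot mean of 65.6. The root libraries of the genotypes overlapped, while in shoots they did not.

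MLP328, which has been linked to vegetative growth and flowering time, came next in roots. It gave 525 and 398 FPKM in Col-0 roots and 481 and 546 in OE-SAUR41 roots, against 0.453 and 2.19 in Col-0 shoots and 1.57 and 0.895 in OE-SAUR41 shoots. Its neighbour MLP329 gave 333 and 283 FPKM in Col-0 roots, 330.4 and 296 in OE-SAUR41 roots, 0.486 and 0.597 in Col-0 shoots, and 0.434 and 0.972 in OE-SAUR41 shoots. The root means were 382 times the shoot mean for MLP328 and 499 times for MLP329, the widest tissue ratios among the 8 genes. Both ratios divide by shoot values near 0, so their size and order are uncertain. On the log2(FPKM + 1) scale the Col-0 difference was 7.73 for MLP328 and 7.64 for MLP329. For both genes the genotypes overlapped in each tissue.

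MLP165 was the weakest of the root-high genes. It gave 31.9 and 36.3 FPKM in Col-0 roots, 23.0 and 20.1 in OE-SAUR41 roots, 2.60 and 1.93 in Col-0 shoots, and 0.354 and 1.10 in OE-SAUR41 shoots. Its OE-SAUR41 libraries lay below its Col-0 libraries in each tissue.

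In shoots MLP28 and MLP43 were the highest, and their ranges overlapped. MLP28 gave 278 and 403 FPKM in Col-0 shoots, 344 and 330.3 in OE-SAUR41 shoots, against 9.81 and 13.8 in Col-0 roots and 3.12 and 5.92 in OE-SAUR41 roots. MLP43 gave 206 and 275 FPKM in Col-0 shoots, 323 and 329 in OE-SAUR41 shoots, 43.4 and 44.0 in Col-0 roots, and 35.4 and 39.6 in OE-SAUR41 roots. MLP43 was thus the most evenly shared of the abundant genes. With the genotypes pooled, its shoot mean was 6.98 times its root mean, while that of MLP28 was 41.5 times. The pooled MLP28 ratio covers genotypes that differed in roots, with a root mean of 11.8 FPKM for Col-0 against 4.52 for OE-SAUR41. The MLP28 shoot means were 341 and 337 FPKM in the same order.

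MLP423 was near 0 in roots, at 0.114 and 0.614 FPKM in Col-0 and at 0.673 and 0.393 in OE-SAUR41. In shoots it gave 103 and 192 FPKM in Col-0 and 124 and 123 in OE-SAUR41, and its shoot mean was 302 times its root mean. MLP168 was low throughout, with 3.44 and 3.49 FPKM in Col-0 shoots, 3.42 and 2.40 in OE-SAUR41 shoots, 0.676 and 0.565 in Col-0 roots, and 0.299 and 0.493 in OE-SAUR41 roots. MLP31 was listed in no library; 4377 of the 27562 protein-coding genes in the reference table, 15.9%, were likewise listed in none.

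In descending order of the root mean the genes were MLP34, MLP328, MLP329, MLP43, MLP165, MLP28, MLP168 and MLP423. Neighbours in that order had separate ranges over the 4 root libraries, except MLP43 with MLP165 and MLP168 with MLP423. In shoots the order was MLP28, MLP43, MLP423, MLP34, MLP168, MLP165, MLP328 and MLP329. There the ranges of MLP28 and MLP43 overlapped, as did each neighbouring pair from MLP168 down to MLP329.

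A gene entered the limma fit of log2(FPKM + 1) if it reached 1 FPKM in at least 2 of the 8 libraries, and a call required an adjusted p (Benjamini-Hochberg, over 19863 genes) under 0.05. All 8 listed MLP genes passed, MLP329 through its root libraries only and MLP168 and MLP423 through their shoot libraries only. A count of tissue calls among them is therefore not given. The log2 differences between Col-0 tissues, root minus shoot, were 7.73 (SE 0.37) for MLP328, 7.64 (SE 0.22) for MLP329, 5.53 (SE 0.20) for MLP34 and 3.43 (SE 0.30) for MLP165. For the shoot-high genes they were -6.72 (SE 0.34) for MLP423, -4.73 (SE 0.30) for MLP28, -2.42 (SE 0.18) for MLP43 and -1.46 (SE 0.23) for MLP168. Of all genes, 65.9% were called between Col-0 tissues, 52.7% higher in roots and 13.2% lower, and the median log2 difference was 0.91. With trimmed-mean (TMM) scaling, called genes split into 4083 higher and 4311 lower, and the median moved to 0.09.

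In OE-SAUR41, 77.8% of all genes were called between tissues, 66.0% higher in roots and 11.8% lower, and TMM scaling gave 5682 higher and 5034 lower. The median log2 difference over all genes was 1.22. MLP34 had a log2 difference of 3.61 (SE 0.20) in OE-SAUR41, smaller than in Col-0, and MLP28 had -5.98 (SE 0.30), larger in size than in Col-0. The others were 7.86 for MLP328, 7.54 for MLP329, 3.74 for MLP165, -6.35 for MLP423, -3.09 for MLP43 and -1.48 for MLP168. In the main fit limma called no gene for a tissue difference that changed between genotypes. None of the 16 tissue differences of MLP genes had the opposite sign under any of the alternatives run, scalings included.

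The summed level of the MLP genes was 1870.4 and 1661 FPKM in Col-0 roots and 1601 and 1809 in OE-SAUR41 roots. In shoots it was 609 and 900.1 FPKM in Col-0 and 864 and 852 in OE-SAUR41. Every root library was above every shoot library, and the genotypes overlapped in each tissue. The sum made up 0.254% to 0.286% of all FPKM in a root library and 0.0899% to 0.116% in a shoot library.

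**Figure D2:**
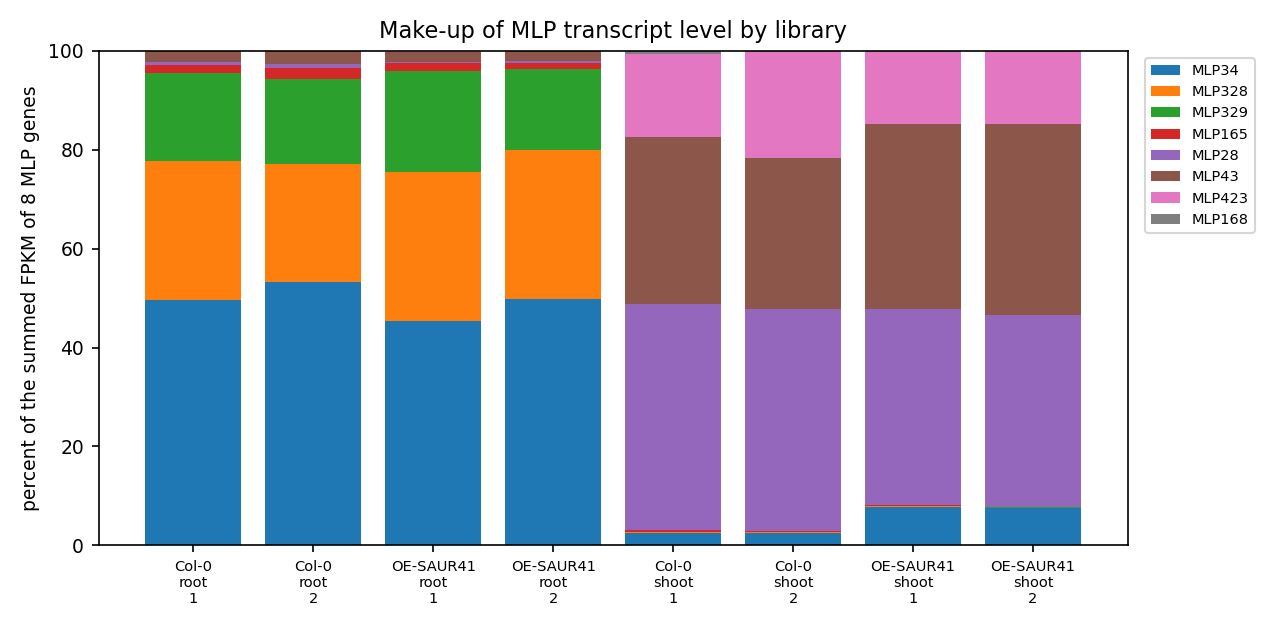
Share of each MLP gene in the summed FPKM of the 8 listed MLP genes (vertical axis, percent), one stacked bar per library. MLP34, MLP328 and MLP329 filled most of each root bar, and MLP28, MLP43 and MLP423 most of each shoot bar; MLP34 took 2.60% and 2.43% in Col-0 shoots and 7.81% and 7.48% in OE-SAUR41 shoots.

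The make-up of that sum differed between tissues. MLP34 supplied 45.4% to 53.2% of it in roots, MLP328 24.0% to 30.2% and MLP329 16.4% to 20.6%. In shoots MLP28 supplied 45.6% and 44.8% in Col-0 and 39.8% and 38.8% in OE-SAUR41, and MLP43 33.7%, 30.6%, 37.4% and 38.6% in the same order.

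In OE-SAUR41 shoots, MLP34 and MLP43 stood above Col-0 shoots, and MLP165 and MLP168 below. MLP34 averaged 18.9 ± 4.30 FPKM (SD, n = 2) in Col-0 shoots and 65.6 ± 2.64 in OE-SAUR41 shoots, a ratio of 3.48. Its log2 difference was 1.76 (SE 0.20), or 2.09 relative to the median of all genes, which was -0.32. That relative value was larger in size than the relative value of 99.9% of the genes tested. MLP43 averaged 240.4 ± 49.1 and 326 ± 4.37 FPKM, a log2 difference of 0.45 (SE 0.18). MLP165 averaged 2.27 ± 0.473 and 0.725 ± 0.524 FPKM, a log2 difference of -0.95 (SE 0.30), which was -0.63 without OE-SAUR41 shoot 1. Relative to the median of all genes the MLP165 value was -0.62. At these low levels it depended on the pseudocount, the FPKM added before the log. The log2 difference was -1.67 with a pseudocount of 0.1 and -0.35 with 5. MLP168 had nearest libraries at 3.42 and 3.44 FPKM, and its log2 difference of -0.20 (SE 0.23) turned to 0.26 with quantile normalization and 0.13 with TMM scaling.

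For MLP28, MLP328, MLP329 and MLP423 the shoot libraries of the genotypes overlapped, and their log2 differences lay between -0.18 and 0.13. Their signs depended on the processing. With Col-0 shoot 1 left out MLP28 differed by -0.26, MLP328 by -0.53 and MLP423 by -0.63, and with Col-0 shoot 2 left out by 0.28, 0.60 and 0.26. MLP329 differed by 0.07 and 0.18 in the same order, and by -0.10 without OE-SAUR41 shoot 2. Thus 4 of 8 did not overlap, where 39.7% of all genes did not. Of these, 2 stood higher, where 7.26% of all genes did, and 2 stood lower, where 32.5% did. None of the 8 was called by limma, where 0.0201% of all genes were; 2 of the 8 were higher at an unadjusted p under 0.05, where 2.30% were, and 1 was lower, where 11.8% were. The median log2 difference of the 8 was 0.02.

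The shoot calls depended on the Col-0 libraries. Without Col-0 shoot 1, limma called MLP34 higher (log2 difference 1.54), alongside 1.80% of all genes; MLP43 then differed by 0.24 and MLP165 by -0.80. Without Col-0 shoot 2 it called MLP34 (1.98) and MLP43 (0.66) higher and MLP165 (-1.10) lower, alongside 49.8% of all genes. MLP34 was also called with a pseudocount of 0.1 or 5, where 0.151% and 0.0856% of all genes were, with a filter at 5 FPKM (0.125%) and with a gene length correction (0.408%). It was not called in the main fit, nor with TMM scaling, quantile normalization, no filter, no trend or a robust fit. A replicate block, library weights and only the contrast's own libraries gave no call of MLP34 either. These calls are a description. Its log2 difference stayed between 1.54 and 2.20 over 20 alternatives. Between the Col-0 shoot libraries, MLP34 was 0.44 higher on the log2 scale in replicate 2, whereas the median of the 1000 genes nearest to it in length was -0.32.

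MLP34 is a root-high gene, so root markers were read in the same libraries. They summed to 20.4 and 16.5 FPKM in Col-0 shoots and to 14.7 and 19.0 in OE-SAUR41 shoots, where the genotypes overlapped. SCR was the largest part of each of these shoot sums. Its level was 14.1 in Col-0 shoot 1, 7.11 in Col-0 shoot 2, 8.48 in OE-SAUR41 shoot 1 and 9.36 in OE-SAUR41 shoot 2. CASP1, the next largest at 3.65 to 7.64 FPKM, shares its locus with another gene. The overlap of the sums thus rests mainly on these genes. The root-high MLP328 and MLP329 stayed at or below 2.19 FPKM in all 4 shoot libraries. Whether root tissue had a part in the MLP34 difference was not tested. In bulk tissue, a different number of cells of one type and a different amount of RNA per cell cannot be told apart.

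**Figure D3:**
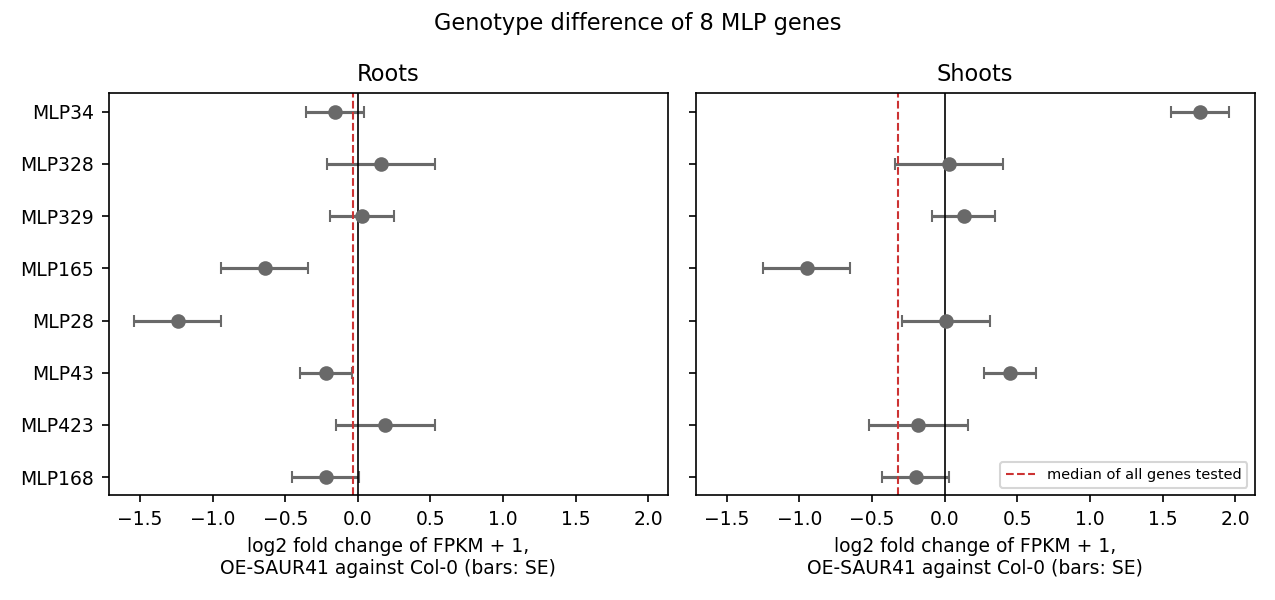
Log2 fold change of FPKM + 1, OE-SAUR41 against Col-0 (horizontal axis), for the 8 listed MLP genes in roots (left) and shoots (right); bars are standard errors from the limma fit, and the dashed line is the median of all genes tested (-0.03 in roots, -0.32 in shoots). MLP28 lay furthest below 0 in roots and MLP34 furthest above 0 in shoots.

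In OE-SAUR41 roots MLP28, MLP43, MLP165 and MLP168 stood below Col-0 roots. MLP28 averaged 11.8 ± 2.83 FPKM (SD, n = 2) in Col-0 roots and 4.52 ± 1.98 in OE-SAUR41 roots, a Col-0 mean 2.61 times as high. Its log2 difference was -1.24 (SE 0.30), or -1.21 relative to the median of all genes. That relative value was larger in size than the relative value of 99.8% of genes tested. The log2 difference without OE-SAUR41 root 1 was -0.87 and without OE-SAUR41 root 2 it was -1.62. MLP165 averaged 34.1 ± 3.04 and 21.5 ± 2.06 FPKM, a log2 difference of -0.64 (SE 0.30). MLP43 and MLP168 each differed by -0.22 on the log2 scale, with SEs of 0.18 and 0.23.

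MLP34, MLP328, MLP329 and MLP423 overlapped between genotypes in roots, with log2 differences between -0.16 and 0.19. Thus 4 of 8 did not overlap, where 31.1% of all genes did not. All 4 stood lower, where 19.6% of all genes did, and none stood higher, where 11.5% did. None of the 8 was called by limma, where 0.00503% of all genes were; 1 of the 8 had an unadjusted p under 0.05, where 1.71% did. The median log2 difference was -0.19 for the 8 genes and -0.03 for all genes.

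MLP28 is a shoot-high gene. The shoot markers summed to 119.9 and 97.7 FPKM in Col-0 roots and to 80.3 and 97.5 in OE-SAUR41 roots, with the lowest sum in OE-SAUR41 root 1, where MLP28 was also lowest. Their part in the MLP28 difference was not tested.

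The difference between the genotype effects, roots minus shoots, was -1.92 (SE 0.28) for MLP34, -1.25 (SE 0.43) for MLP28 and -0.67 (SE 0.25) for MLP43 on the log2 scale. By limma 0 of 8 MLP genes and 0 of 19863 genes were called for it, and 3 of 8 had an unadjusted p under 0.05, where 4.77% of all genes did. Without Col-0 shoot 2 limma called MLP28, MLP34 and MLP43, alongside 34.8% of all genes, and without Col-0 shoot 1 it called none of them, where 0.00503% of all genes were called.

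Some MLP genes near each other on a chromosome had opposite tissue patterns, and others had the same pattern. All coordinates are on TAIR10. MLP28 (chromosome 1, 26709947 to 26711462), MLP34 (26714866 to 26716829) and MLP43 (26725626 to 26726544) stand in a row of 7 genes of the family, in the order MLP28, MLP31, MLP34, AT1G70860, AT1G70870, AT1G70880 and MLP43. In the reference table no other gene lies between successive members of the row, except 1 transcribed pseudogene before MLP43. No listed MLP gene shares its locus with another gene in the files. How reads that match several of these related genes were assigned was not given in the sources used here.

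**Figure D4:**
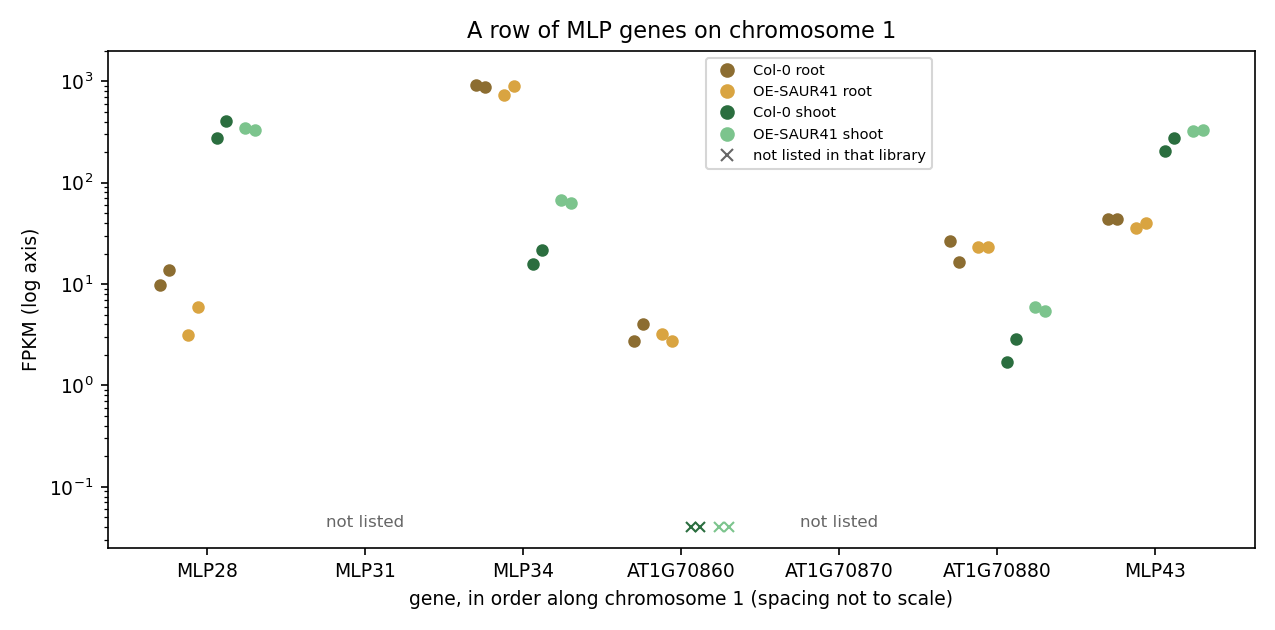
FPKM on a log axis (vertical) of the 7 genes of the chromosome 1 row, in genome order with spacing not to scale; each point is a library and crosses mark libraries that do not list the gene. MLP28 and MLP43 at the ends of the row stood higher in shoots, and the 3 listed genes between them higher in roots.

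Within the row, the shoot-high MLP28 and MLP43 stood at the ends and the listed genes between them were root-high. The unlisted MLP31 lies between MLP28 and MLP34, and the pseudogene between AT1G70880 and MLP43. Named here after its values were seen, AT1G70880 gave 26.8, 16.4, 23.4 and 23.0 FPKM in the Col-0 and OE-SAUR41 root libraries, 1.70 and 2.84 in Col-0 shoots and 5.99 and 5.36 in OE-SAUR41 shoots. It was thus root-high with OE-SAUR41 shoots above Col-0 shoots, as MLP34 was. However, its log2 difference in shoots of 1.05 (SE 0.31) did not pass limma's test (adjusted p = 0.269). That difference lay between 0.80 and 1.30 with a library left out. The root minus shoot difference of AT1G70880 in OE-SAUR41 was 1.86 on the log2 scale (limma adjusted p = 0.00134). It was 0.77 with quantile normalization and 0.54 with TMM scaling, and limma called neither. AT1G70860, also named after its values were seen, gave 2.77 to 4.06 FPKM in roots and was listed in no shoot library. MLP31 and AT1G70870 were listed nowhere.

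On chromosome 2, MLP328 (235925 to 237147) and MLP329 (239705 to 240520) stand next to each other with 1 long non-coding RNA gene between them, and both stood high in roots and low in shoots. MLP165 (chromosome 1, 12936849 to 12937787) and MLP168 (12956159 to 12957090) have 5 annotated genes between them and stood on opposite sides, MLP165 high in roots and MLP168 in shoots. MLP423 (chromosome 1, 8500400 to 8502065) has 1 gene between it and AT1G24000, an MLP gene that stayed under 1 FPKM in every library.

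Likeness was measured as the root mean square difference over the 8 libraries between log2(FPKM + 1) values centred on each gene's mean. Between MLP genes, the closest pair was MLP328 and MLP329 at 0.373. MLP43 and MLP168 followed at 0.698, and MLP28 and MLP423 at 0.825. MLP28 and MLP34, from the same row, differed by 5.02.

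Among 13125 candidate genes with a mean of at least 5 FPKM, the gene most like MLP34 was AT4G20390, which encodes the CASP-like protein 1B2, at 0.155 against a median of 1.93 over the candidates. It gave 103, 88.2, 81.8 and 101 FPKM in roots, 1.23 and 1.46 in Col-0 shoots and 8.76 and 6.03 in OE-SAUR41 shoots. The gene most like MLP28 was CYP79F1, a cytochrome P450 of aliphatic glucosinolate synthesis, at 0.359. CYP79F1 gave 3.46 and 3.34 FPKM in Col-0 roots, 0.977 and 1.97 in OE-SAUR41 roots and 141 to 191 in shoots.

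The nearest genes of the others were BGLU21, a beta-glucosidase, for MLP328 (0.298), the jacalin-like lectin gene JAL10 for MLP329 (0.192) and the cytochrome P450 gene CYP71B37 for MLP165 (0.189). They were YLMG1-2 for MLP43 (0.146), the S-adenosylmethionine carrier gene SAMC1 for MLP168 (0.0999) and AT5G38980 for MLP423 (0.240). BGLU21 and JAL10 were root-high, at 263 to 379.6 and 196 to 251 FPKM in roots and at no more than 0.711 and 0.0607 in shoots.

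The family also holds 18 other MLP or Bet v 1 genes without an MLP number, of which 11 passed the filter, 3 were listed below it at no more than 0.963 FPKM and 4 were listed nowhere. Between tissues in Col-0, limma called 7 of the 11 higher in roots and 1 lower, where 52.7% and 13.2% of all genes were. In OE-SAUR41 it called 6 higher and 1 lower, where 66.0% and 11.8% of all genes were. With TMM scaling the counts were 6 and 2 in Col-0 and 5 and 5 in OE-SAUR41. Between genotypes it called 0 of 11 in each tissue; the smallest adjusted p was 1.00 in roots and 0.158 in shoots, and at an unadjusted p under 0.05 there were 1 and 3, where 1.71% and 2790 of 19863 genes were. The median log2 difference between genotypes was -0.04 in roots and 0.06 in shoots.

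**Figure D5:**
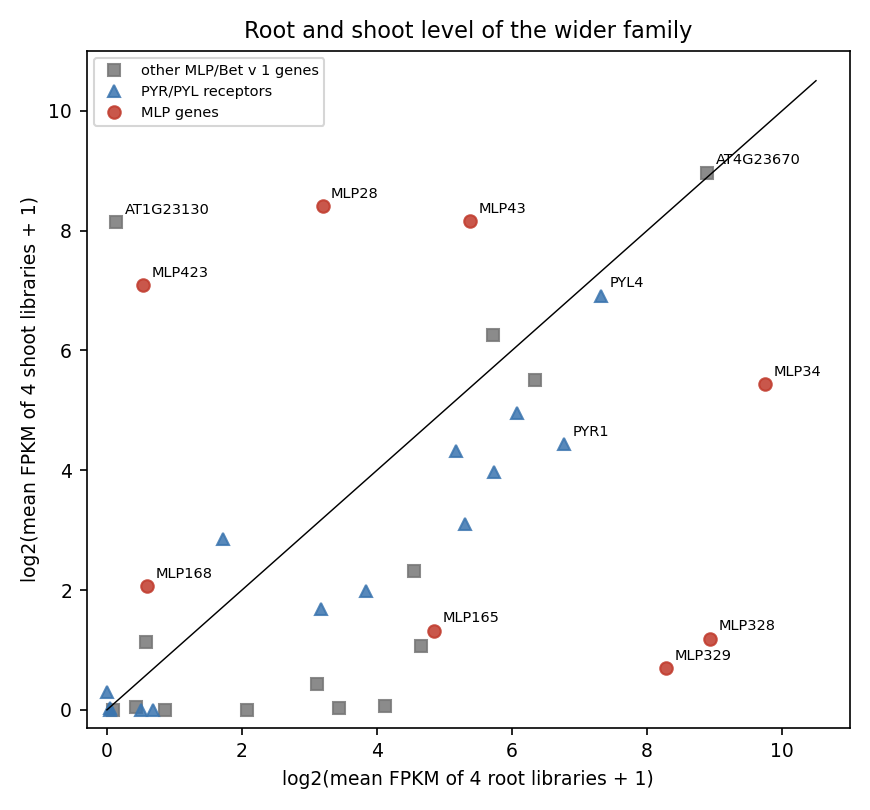
Mean level over 4 root libraries (horizontal) and over 4 shoot libraries (vertical), as log2(FPKM + 1), of the MLP genes, the other MLP/Bet v 1 genes and the PYR/PYL receptors; the line marks equal levels. MLP genes lay on both sides of the line, MLP168 nearest to it, AT1G23130 lay in the shoot-high corner, and AT4G23670 and PYL4 lay close to the line.

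Of the 3 most abundant of these genes, AT1G23130 was shoot-high, while AT4G23670 and AT3G26450 had no tissue call in the main fit. AT1G23130 was not listed in Col-0 root 1 and gave 0.134, 0.153 and 0.121 FPKM in the other root libraries, 341 and 418 in Col-0 shoots and 177 and 193 in OE-SAUR41 shoots. It was called lower in Col-0 roots than shoots, by a log2 difference of -8.47 (limma adjusted p = 8.09e-07). In shoots its OE-SAUR41 libraries lay below Col-0 by a log2 difference of -1.03 (SE 0.20), which did not pass limma's test (adjusted p = 0.158). It passed when Col-0 shoot 1 (0.0285) or Col-0 shoot 2 (0.00627) was left out, within a range of 0.00627 to 0.830 over 20 alternatives, by limma. Its neighbour AT1G23120 had the opposite tissue pattern, with 5.67 to 9.54 FPKM in roots and no more than 0.611 in shoots.

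AT4G23670 gave 590.0 and 453 FPKM in Col-0 roots, 440.4 and 408 in OE-SAUR41 roots, 702 and 321 in Col-0 shoots, and 483 and 489 in OE-SAUR41 shoots. It was the most abundant gene of the family over the 8 libraries (mean 486 FPKM), ahead of MLP34 (451), and showed no tissue call in Col-0 (limma adjusted p = 0.755). The main fit gave none in OE-SAUR41 either (limma adjusted p = 0.604). With TMM scaling the OE-SAUR41 difference was -1.64 on the log2 scale and was called (limma adjusted p = 0.00851). AT3G26450 gave 46.2 to 62.2 FPKM in roots and 61.0 to 84.9 in shoots, and its tissue difference in Col-0 of -0.55 on the log2 scale lay on the threshold of limma's test (adjusted p = 0.0511; 5.08e-04 to 0.189 over 21 alternatives, of which 7 passed). In OE-SAUR41 the difference was -0.50 (limma adjusted p = 0.0640), and 8 of 20 alternatives passed.

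Of the 14 PYR/PYL abscisic acid receptors, 9 passed the filter and 5 stayed at or below 0.801 FPKM. Between tissues in Col-0, limma called 7 of 9 higher in roots and none lower, where 52.7% and 13.2% of all genes were. In OE-SAUR41 it called 7 higher and 1 lower (PYL7, which shares its locus with another gene), where 66.0% and 11.8% were. These counts depended on the scaling: TMM gave 3 higher and 1 lower in Col-0 and 2 and 1 in OE-SAUR41, and quantile normalization 4 and 1, and 5 and 1. Without Col-0 root 1 the Col-0 count was 4 higher and none lower. The directions of PYL4 and PYL8 turned under TMM scaling, where the Col-0 log2 differences were -0.53 and -0.14. Between genotypes limma called none; all 9 log2 differences in roots were negative, as were 11389 of 19863 over all genes, with a median of -0.15 (smallest adjusted p = 1.00, and none with an unadjusted p under 0.05). In shoots 3 of 9 had an unadjusted p under 0.05, as did 2790 of 19863 genes, and the smallest adjusted p was that of PYR1.

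PYR1 gave 122 and 109 FPKM in Col-0 roots, 99.3 and 106 in OE-SAUR41 roots, 33.5 and 29.4 in Col-0 shoots, and 11.0 and 8.31 in OE-SAUR41 shoots. Its OE-SAUR41 shoot libraries lay below Col-0 by a log2 difference of -1.62 (SE 0.19), just outside the threshold (limma adjusted p = 0.0569; 6.25e-04 to 0.830 over 20 alternatives, of which 5 passed). It passed by limma when Col-0 shoot 1 (0.0152) or Col-0 shoot 2 (6.25e-04) was left out. PYL4 gave 190.3 and 144 FPKM in Col-0 roots, 137 and 163 in OE-SAUR41 roots, 84.4 and 160.0 in Col-0 shoots, and 112 and 123 in OE-SAUR41 shoots, with the genotypes overlapping in each tissue. PYL8 gave 60.3 to 74.3 FPKM in roots, 44.8 and 31.1 in Col-0 shoots and 20.7 and 23.7 in OE-SAUR41 shoots. The log2 difference of PYL8 in shoots was -0.73 (limma adjusted p = 0.269), and between -0.98 and -0.47 with a library left out.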

How the data were processed

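The authors deposited FPKM values, 1 file per library, per the file headers. The genome build was TAIR10, per the submitters' processing notes. Aligner, quantifier and strand setting were not given in the sources used here. No file holds a 0, so an unlisted gene was taken as 0, and 3 genes listed in 1 library of a group at over 100 FPKM but not in the other were left out as failed estimates. Names and gene order came from a reference table of assembly TAIR10.1, matched to 25139 genes.

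The 19863 genes that reached 1 FPKM in 2 or more libraries were fitted on log2(FPKM + 1), which understates changes of low genes, with limma 3.58.1 in R 4.3.3: 4 group means over all 8 libraries, eBayes with trend, 3.53 prior and 4 residual degrees of freedom. Contrasts compared genotype within tissue, their difference, and tissue within genotype. With 2 libraries a group, the smallest p of an exact permutation test is 0.333, and none was run. Tables used pandas 2.3.3 and numpy 2.4.6 in Python 3.11.15, and plots matplotlib 3.10.9. The code was tested on simulated data.

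The members and the gene lists were chosen with earlier results of these data known. All 9 MLP genes were named, with the gene most alike to each. Of the other MLP/Bet v 1 genes and the PYR/PYL receptors, those called between genotypes were to be named, or, as none was, the 3 highest in mean FPKM.

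The alternatives were TMM scaling without count weights, quantile normalization, a gene length correction, library weights, pseudocounts of 0.1 and 5, a filter at 5 FPKM or none, a robust fit, no trend, only the contrast's own libraries, a replicate block, and each library left out, where a lone library is taken to vary as the other groups do.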

Additional observations from a re-analysis of the deposited data

How the results depend on the processing

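No tissue difference of an MLP gene changed sign in any alternative, and 8 of 16 genotype differences did in at least 1. MLP genes called in shoots numbered 0, and 1 with pseudocount 0.1, pseudocount 5, the 5 FPKM filter or the length correction, and 0 to 3 with a library left out; for the difference between tissues, 0 to 3 with a library left out. Over all genes in roots, 1 was called, against 3 with pseudocount 0.1, 3 with pseudocount 5, 9 with no filter, 2 with the length correction, 14 with library weights and 1 to 9 with a library left out. In shoots 4 were called, against 30 with pseudocount 0.1, 17 with pseudocount 5, 8 with no filter, 19 with the 5 FPKM filter, 24 (19 higher) with quantile normalization, 1 with no trend, 0 with the libraries of the contrast alone (a fit of fewer samples), 81 (46 higher) with the length correction, 1 with library weights and 1 to 9887 with a library left out (357 when this was Col-0 shoot 1, 9887 when it was Col-0 shoot 2). The difference between tissues called 0, 2 with no filter and 0 to 6904 with a library left out. Between Col-0 tissues 13094 were called, against 8394 with TMM, 8404 with the libraries of the contrast alone and 7875 to 16381 with a library left out (7875 and 8294 for the Col-0 root libraries 1 and 2). Quantile normalization split the tissue calls into 5650 higher and 4332 lower in Col-0 and 6464 and 4545 in OE-SAUR41. The causes of these shifts were not tested.

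Replicate numbers were not used as pairs in the main fit. Same-numbered libraries of the genotypes deviated with correlations over genes of 0.0763 in roots and -0.00491 in shoots, and those of Col-0 root and shoot with -0.218. With 2 libraries a group, these values cannot show whether same-numbered samples were handled together. With the replicate block 1 gene was called in shoots, no count of MLP genes moved, and AT3G26450 passed limma's test between tissues (adjusted p = 0.0337 in Col-0 and 0.0420 in OE-SAUR41). Crossed numbers, added after seeing the data, called 12359 genes between Col-0 tissues.

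Signs turned for genes with no call. AT4G23670 differed between genotypes in shoots by -0.05 with quantile normalization and by -0.53 to 0.60 with a library left out; between tissues it differed by -0.92 with TMM and -0.44 to 0.68 with a library left out in Col-0, and by 0.13 with quantile normalization in OE-SAUR41. AT3G26450 spanned -0.04 to 0.35 in roots and -0.14 to 0.33 in shoots, AT1G70880 spanned -0.20 to 0.48 in roots, and PYL4 spanned -0.35 to 0.05 in roots and -0.45 to 0.47 in shoots, each with a library left out. With TMM, PYL4 differed between tissues by -0.53 in Col-0 and -1.09 in OE-SAUR41, and PYL8, which had a call, by -0.14 in Col-0. The 2 libraries of each group and unknown depth limit every genotype comparison.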
